A study of Mus musculus with 7 samples.

Results

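The genes described here are 10 inhibitors of mitogen-activated protein (MAP) kinase signalling: the dual-specificity phosphatase genes Dusp1, Dusp4, Dusp5, Dusp6 and Dusp8, the Sprouty genes Spry1, Spry2 and Spry4, and the Spred genes Spred1 and Spred2. They were taken by symbol from a table of 23337 mouse genes, and all 10 were found. Their transcripts were measured by RNA sequencing in cardiomyocytes isolated on postnatal day 6 (P6, 4 libraries, P6a to P6d) and postnatal day 30 (P30, 3 libraries, P30a to P30c). The libraries at both ages came from mice given as Rosa-Tom/Cas9, with a Tom or a Cas9 allele at Rosa, that had received AAV9-cTNT-Cre, an adeno-associated virus with a cardiac troponin T promoter in front of Cre recombinase, on day 1. The allele of each single mouse, the use of separate animals and the strain are not stated in the labels. Cells were freed by collagenase perfusion of the heart and purified by fluorescence-activated sorting. No group went without the virus, and time since the virus cannot be told apart from age. The comparison asks how the transcripts of cardiomyocytes at P30 differed from those at P6.

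MAP kinase cascades carry signals from growth factor receptors, stretch and stress to the nucleus. In the branch that ends in the kinase ERK, receptors activate the small GTPase Ras, which sets off a chain of kinases in which MEK activates ERK. The parallel branches that end in JNK and p38 respond mainly to stress. MAP kinase phosphatases end the signal by removing phosphate from both residues of the activation loop of ERK, JNK or p38, while Sprouty and Spred proteins act upstream, between the receptor and MEK. Many of these inhibitors are themselves induced by the pathway they restrain, so they are often read as feedback genes. In the heart, ERK signalling is known for its part in cardiomyocyte growth and in congenital cardiomyopathies caused by Ras pathway mutations.

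Stretches of the upstream sequence are shown for the 3 phosphatase genes on which the first results turn, because these hold letters known as binding sites of signal-regulated factors. RefSeq start sites (GRCm38.p6) were available for 8 of the 10 genes, and the 250 bases before each were searched on both strands for TGACGTCA (the cAMP response element, CRE, bound by CREB and ATF factors), its core TGACG (which every CRE also holds), TGANTCA (AP-1), CCGGAA (ETS) and the CArG box (bound by serum response factor). Capitals mark CRE, its core, and CArG boxes. Letters of the TATA box, the E-box (CANNTG) and the GC box (GGGCGG) were also searched and are not marked. Of the windows of tested genes 57.3% held an E-box and 57.9% a GC box. Both were found in the windows of Dusp1 and Dusp8, and an E-box overlapped each CRE of Dusp8. The stretch of Dusp1 is chr17:26508573-26508672 (minus strand), that of Dusp8 chr7:142095335-142095434 (minus strand) and that of Dusp5 chr19:53529005-53529104 (plus strand), each written in the direction of transcription. Upstream here means before the RefSeq start site. The gene spans given below are from GENCODE, and the stretches of Dusp1 and Dusp8 lie inside those spans.
Dusp1: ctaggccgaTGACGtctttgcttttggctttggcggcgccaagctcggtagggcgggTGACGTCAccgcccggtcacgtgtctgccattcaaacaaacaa
Dusp8: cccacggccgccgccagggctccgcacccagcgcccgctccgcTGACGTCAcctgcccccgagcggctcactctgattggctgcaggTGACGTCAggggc
Dusp5: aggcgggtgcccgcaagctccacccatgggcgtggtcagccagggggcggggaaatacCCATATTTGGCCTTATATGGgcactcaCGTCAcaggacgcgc
The Dusp1 window held 1 CRE, from 143 to 136 bases before the start site, and the Dusp8 window 2, at 107 to 100 and 63 to 56 bases. Among 11516 upstream windows of genes tested below, 2.58% held a CRE and 0.0521% held at least 2. Dusp5 had no CRE but 2 adjoining CArG boxes, at 82 to 73 and 72 to 63 bases, where 1.19% of the windows held at least 1 and 0.0174% at least 2. In the windows of Dusp6, Spry1, Spry2, Spred1 and Spred2 none of CRE, AP-1, ETS or CArG was found, and that of Spred2 held a single TGACG core. The core was present in 26.5% of the windows of tested genes, the AP-1 letters in 4.33% and the ETS letters in 21.2%, and neither of the latter was found in any of the 8 members. These matches describe letters and show no binding.

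Levels are given as CPM, which are counts scaled to library size with TMM factors. Of the 10 genes, 9 passed the filter on low counts and were tested. At P30, 6 were higher (Dusp1, Dusp6, Dusp8, Spry4, Spred1 and Spred2), 2 were lower (Dusp5 and Spry2) and Spry1 did not pass (quasi-likelihood test of edgeR over 12561 genes, threshold 0.05 after adjustment). This is 8 of 9, where 54.1% of all tested genes passed, 26.3% higher and 27.8% lower. The ages did not overlap in CPM for 6 of the 9, beside 56.6% of all tested genes. The median log2 fold change of all tested genes was -0.02. In bulk RNA, a transcript carried by fewer cells and one with less RNA in each cell cannot be told apart.

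**Figure D1:**
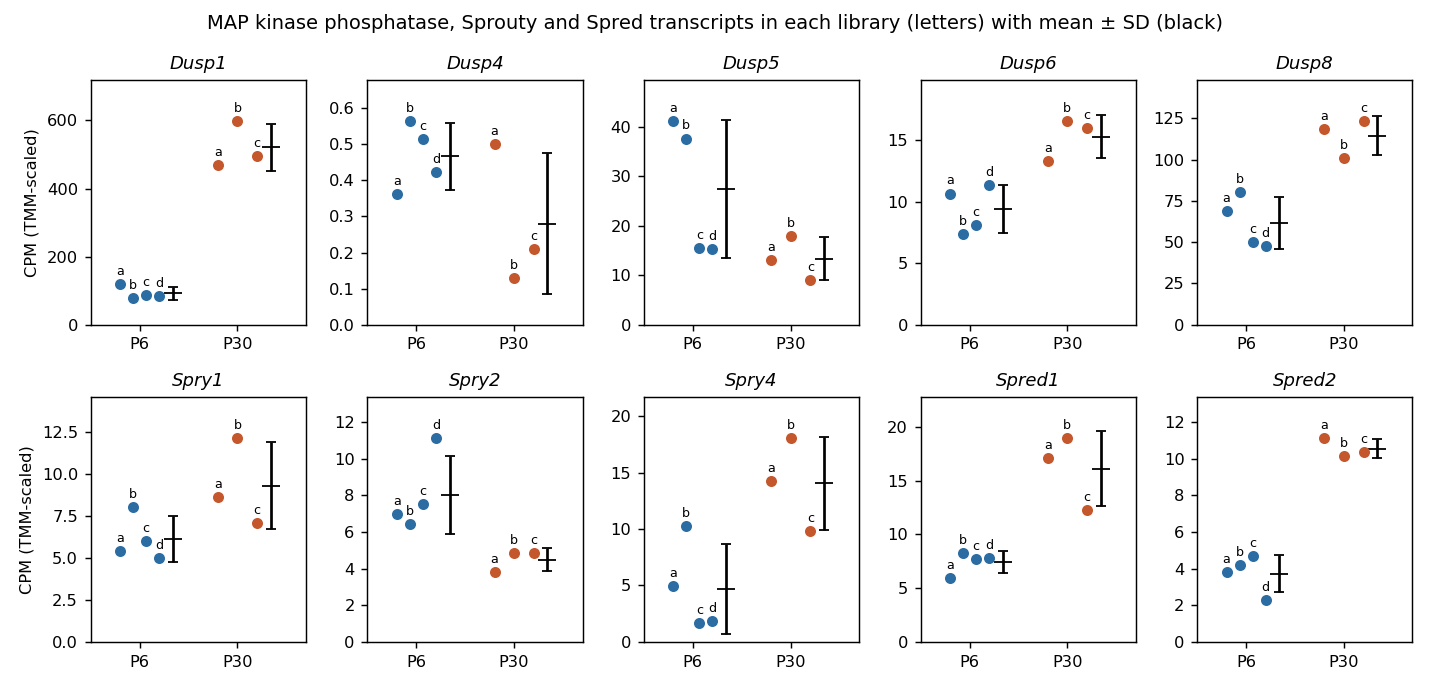
Each point is the TMM-scaled CPM of a gene in a library, named by its letter, at P6 (blue, 4 libraries) and P30 (orange, 3 libraries), and black bars give the mean ± SD. Dusp1 lies between 77.8 and 119.9 CPM at P6 and between 468 and 599.7 CPM at P30, and Dusp5 and Spry4 spread widely at P6.

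Total counts ran from 10594932 to 51427646 at P6 and from 15555469 to 19368717 at P30, and 3 counts came to between 0.0553 CPM (P6c) and 0.271 CPM (P6a). On principal components of log CPM, age lay along the first axis (74.3% of variance), while the pair P6a and P6b stood apart from P6c and P6d on the second (9.37%). All 8 cardiomyocyte markers, Myh6 and Tnnt2 among them, were expressed, summing to 78068 to 97788 CPM at P6 and 116040 to 123930 CPM at P30. Markers of other cells were present at lower levels. The 9 endothelial markers (Pecam1, Kdr and others) summed to 115.7 to 227.9 CPM at P6 and 314 to 622 CPM at P30, with 6 higher and none lower. The 8 macrophage and leukocyte markers found rose from 2.25 to 4.47 CPM to 12.8 to 41.6 CPM in sum, with all 7 tested called higher and Cd52 at 0 in every P6 library. For the 9 fibroblast markers the sums were 159 to 393 and 138 to 316 CPM, with none called higher and 1 lower. Of the 8 markers of smooth muscle and pericytes, 4 were higher (Pdgfrb, Rgs5, Kcnj8 and Myh11, by 1.30 to 1.81 on the log2 scale) and 1 lower (Cnn1). Their sums, 983 to 2191 and 972 to 1814 CPM, were mostly Acta2, which did not pass. P30b had the highest sum of the P30 libraries for endothelial, fibroblast and leukocyte markers. Its sum of smooth muscle and pericyte markers was the lowest of the P30 libraries (972 CPM). That order was set by Acta2, at 805 CPM in P30b against 1050 in P30a and 1701 in P30c. Pdgfrb, Rgs5 and Kcnj8 were highest in P30b among the P30 libraries, Cnn1 and Cspg4 were lowest, and Myh11 and Tagln lay between. P30b was also the P30 library with the highest level of Dusp1, Dusp5, Dusp6, Spry1, Spry4 and Spred1. For Spry2 it was highest by a narrow margin (4.844 CPM, against 4.837 in P30c), and for Dusp4, Dusp8 and Spred2 it was lowest. The share of all tested genes that were highest in P30b was not computed. Of 5 erythroid markers found 3 had no count at either age, and sums were at most 1.33 CPM. None of 3 epicardial and 2 Schwann or neuronal markers tested passed. The part of other cells in the values below was not tested.

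Dusp1 encodes a nuclear phosphatase (MKP-1) that acts on p38, JNK and ERK and is a classic immediate early gene. It is annotated on chromosome 17, 26505590 to 26562128, minus strand (GRCm38), a span that a single long transcript extends. It stood at 119.9, 77.8, 88.1 and 84.5 CPM in P6a to P6d and at 468, 599.7 and 495 CPM in P30a to P30c. Every P30 library was thus far above every P6 library. Means of 92.6 ± 18.7 CPM (SD, n = 4) and 521 ± 69.4 CPM (SD, n = 3) gave 5.64-fold higher levels at P30, which is 2.495 ± 0.154 (SE) on the log2 scale (edgeR adjusted p = 2.7e-06). Only 4.88% of tested genes had a log2 fold change of that size or more in either direction. Dusp1 was the most abundant of the 10 at both ages also per length, with 46.5 ± 9.41 CPM per kilobase of transcript at P6 and 262 ± 34.9 at P30.

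Immediate early and stress genes, a list that also holds genes known to respond to enzymatic dissociation of tissue, moved with Dusp1. Of 40 such genes, 22 were higher and 3 lower (6 with library totals) at P30, where 26.3% of all tested genes were higher and 27.8% lower. Their median log2 fold change was 0.60, and their sum went from 2297 to 2649 CPM at P6 to 4605 to 6562 CPM at P30. Egr1, a zinc finger factor induced through serum response factor, rose from 9.41 ± 2.20 CPM (n = 4) to 230.1 ± 85.6 CPM (n = 3). Fos, the AP-1 subunit, rose from 26.2 ± 18.3 to 438 ± 112 CPM, and Cyr61, a matricellular protein, from 51.7 ± 16.6 to 713 ± 142 CPM. The heat shock gene Hspa1a, whose reads may be shared with a near-identical copy, rose from 0.773 ± 0.445 to 21.2 ± 8.47 CPM. The list was not uniform. Jund fell by 0.69 ± 0.12 on the log2 scale, and Nr4a1, chosen after its values were seen, missed the threshold with 0.14 ± 0.66 (edgeR adjusted p = 0.87). Among the P30 libraries P30b was highest for Dusp1, Egr1, Fos and Cyr61, and also for Jund and Nr4a1, which did not rise with them. The share of all tested genes with that order was not computed. The labels give a single protocol of cell isolation for both ages, and its part in the level of Dusp1 was not tested.

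**Figure D2:**
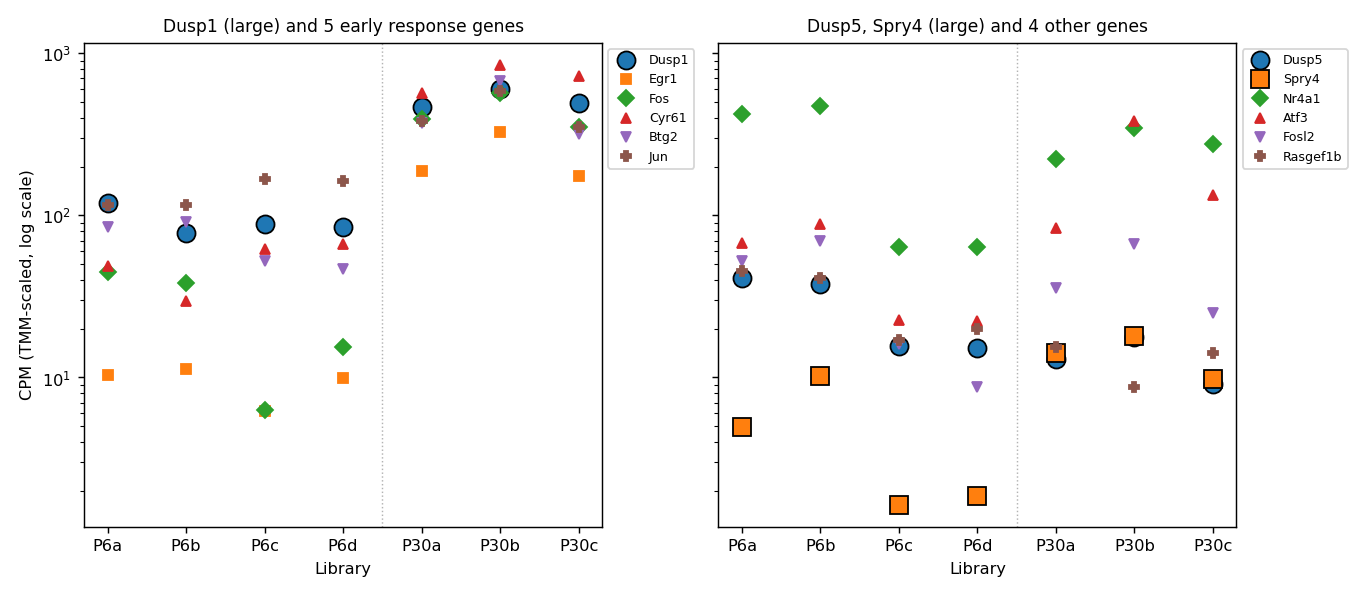
CPM on a log scale in each library (horizontal axis), with members drawn large. On the left, Dusp1 and 5 early response genes were all higher in every P30 library than in any P6 library; on the right, Dusp5, Spry4 and 4 other genes were all higher in P6a and P6b than in P6c and P6d. Btg2, Jun, Nr4a1, Atf3, Fosl2 and Rasgef1b were chosen for the plot after their values were seen.

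Dusp5 encodes a nuclear phosphatase that dephosphorylates and anchors ERK. Its gene is on chromosome 19, 53529109 to 53542431, plus strand. The P6 libraries fell into separate pairs, with 41.2 and 37.6 CPM in P6a and P6b and 15.6 and 15.3 CPM in P6c and P6d. At P30 it had 13.0, 17.9 and 9.11 CPM, so P30b lay above the lower pair of P6 libraries and the ages overlapped. The log2 fold change was -1.03 ± 0.39, with an edgeR adjusted p of 0.049 that barely passed. Without P6a and P6b it was -0.22 and did not pass (edgeR adjusted p = 0.486), and without P6c and P6d it was -1.54 (edgeR adjusted p = 0.0014). An antisense transcript is annotated over 547 bases of Dusp5 exons, and reads of the strands cannot be separated with a kit that does not mark strand.

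The split of the P6 libraries seen in Dusp5 was shared by Dusp8 and Spry4. In these 3 of the 9 tested members both P6a and P6b lay above both P6c and P6d, and in Spry2 both lay below. The same order, above, held for 25.7% of all tested genes and for 20 of the 40 immediate early and dissociation-associated genes, and the reverse order for 22.6% and 10 of the 40. Nr4a1, an orphan nuclear receptor of the early response, had 421 and 474 CPM in P6a and P6b and 63.4 CPM in each of P6c and P6d. Rasgef1b, a guanine nucleotide exchange factor that the list of Ras-ERK inhibitors also holds, had 45.6, 40.8, 17.1 and 19.99 CPM in P6a to P6d. The labels give no difference between these libraries, and what sets them apart was not tested.

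Dusp4, whose product (MKP-2) is a further inducible nuclear phosphatase, was hardly detected. Its counts were 4, 17, 28 and 5 at P6 and 9, 2 and 3 at P30, which is 0.362 to 0.566 CPM and 0.129 to 0.502 CPM. It did not pass the filter, so no fold change is given. The authors' deposited table lists it with -0.72 on the log2 scale and an adjusted p of 0.495. Dusp2, the remaining nuclear phosphatase of the family, fell from 0.894 ± 0.253 to 0.319 ± 0.119 CPM (log2 fold change -1.47 ± 0.47, edgeR adjusted p = 0.024). Its P30 values, 0.223 to 0.452 CPM, were close to the level of 3 counts in those libraries (0.167 to 0.210 CPM). With Dusp4 and Dusp2 this low, Dusp1 made up most of the nuclear inducible transcripts. Its share of Dusp1, Dusp4 and Dusp5 counts in P6a to P6d was 74.3%, 67.1%, 84.6% and 84.3%, and it reached 97.2%, 97.1% and 98.2% in the P30 libraries. The shares did not overlap (exact permutation p = 0.0286, two-sided, the smallest that 35 splits allow). None of the 8 family shares tested passed after Benjamini-Hochberg adjustment, where that of Dusp1 had 0.0914. A single share at the smallest p could not pass this adjustment by itself, however well the ages were separated.

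Dusp6 encodes the cytoplasmic phosphatase MKP-3, which is selective for ERK and whose transcript is widely used as a readout of fibroblast growth factor and ERK signalling. The gene is on chromosome 10, 99263231 to 99267489, plus strand. It had 10.7, 7.35, 8.14 and 11.4 CPM in P6a to P6d and 13.3, 16.6 and 16.0 CPM in P30a to P30c. The ages did not overlap, and the log2 fold change was 0.72 ± 0.18 (edgeR adjusted p = 0.0083), a 1.65-fold rise. The related cytoplasmic phosphatase Dusp7 rose by a like amount, from 31.0 ± 4.41 to 64.4 ± 18.5 CPM (log2 fold change 1.05 ± 0.18). Dusp9, the last of that group, had no count in any library. The share of Dusp6 among the counts of the group averaged 23.3% ± 4.53 (n = 4) in the P6 libraries and 19.7% ± 3.51 (n = 3) later, and the ranges overlapped (exact permutation p = 0.314, two-sided).

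Dusp8 belongs to the phosphatases directed at JNK and p38 and was the next most abundant member after Dusp1. It lies on chromosome 7, 142079490 to 142095843, minus strand. Levels were 68.7, 80.4, 49.8 and 47.4 CPM in P6a to P6d and 118, 101 and 124 CPM in P30a to P30c, with no overlap. The log2 fold change was 0.89 ± 0.18 (edgeR adjusted p = 0.0023). The other phosphatases of this group did not rise with it. Dusp10 fell from 20.6 ± 0.998 to 14.9 ± 3.24 CPM (log2 fold change -0.47 ± 0.16, edgeR adjusted p = 0.028), and Dusp16 differed by 0.09 ± 0.19 on the log2 scale (edgeR adjusted p = 0.72). Dusp8 accordingly went from 61.6% ± 3.49 (n = 4) to 77.5% ± 1.36 (n = 3) of the counts of the 3 genes, without overlap (exact permutation p = 0.0286, and 0.0914 after adjustment over the 8 shares). Among 16 atypical and other dual-specificity phosphatases, 11 were tested, and 4 were higher, 2 lower and 5 not past the threshold. With library totals 2 were higher and 4 lower. Over all tested genes 26.3% were higher and 27.8% lower. Dusp27, a muscle member without known catalytic activity, had 142.8 ± 23.7 and 183 ± 15.4 CPM, and Dusp3, a phosphatase that also acts on ERK and JNK, fell from 62.9 ± 8.71 to 44.5 ± 2.38 CPM.

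**Figure D3:**
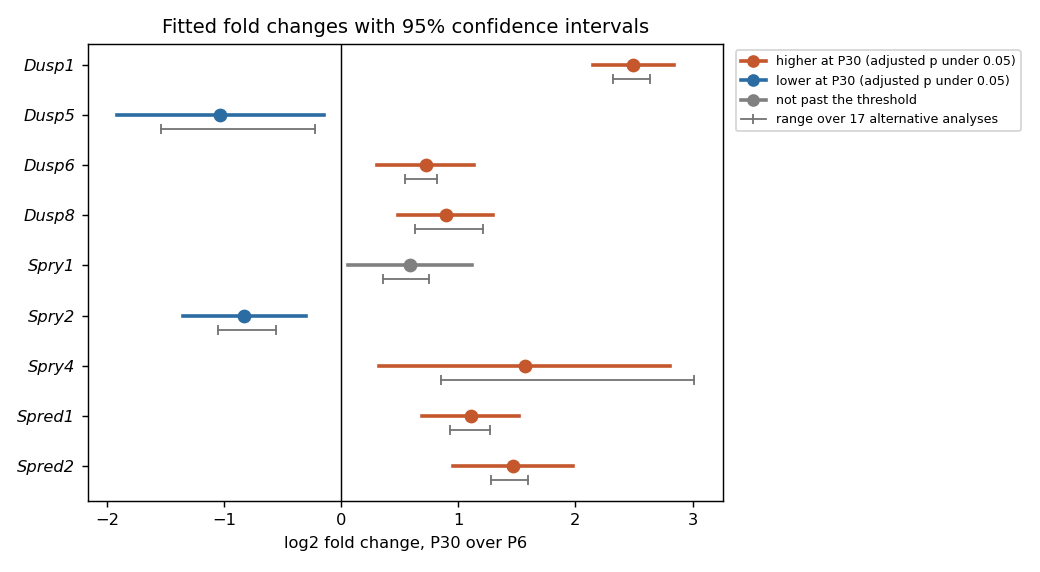
Points give the log2 fold change of P30 over P6 (horizontal axis) for the 9 tested members, thick bars the 95% confidence interval of the fit, and thin capped bars the range over 17 alternative analyses. The intervals of Dusp5 and Spry4 are the widest, and no alternative crosses 0.

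Sprouty proteins are induced by receptor tyrosine kinase signalling and block it upstream of MEK. The 3 Sprouty genes detected did not move as one. Spry2, which binds the adaptor Grb2 and the ubiquitin ligase Cbl, is on chromosome 14, 105891947 to 105896819, minus strand. It had 6.96, 6.45, 7.52 and 11.1 CPM in P6a to P6d and 3.79, 4.84 and 4.84 CPM in P30a to P30c. Each P30 library was below each P6 library, and the log2 fold change was -0.83 ± 0.23 (edgeR adjusted p = 0.014). The call was lost without P30a (edgeR adjusted p = 0.0616) and without the pair P6c and P6d (0.0847), while the value stayed between -1.05 and -0.56 over all alternatives.

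Spry4 went the other way. Its levels were 4.97, 10.2, 1.64 and 1.86 CPM in P6a to P6d and 14.2, 18.1 and 9.81 CPM in P30a to P30c. P6b lay just above P30c, and the P6 libraries were far apart from each other. The log2 fold change was 1.57 ± 0.56 (edgeR adjusted p = 0.037), 3.01 without P6a and P6b (edgeR adjusted p = 0.00016) and 0.86 without P6c and P6d (edgeR adjusted p = 0.0733). It did not pass with DESeq2, and in the authors' deposited table its adjusted p was 0.0627. Leaving out P6a, P6c, P6d, P30a or P30b also ended the call, and without P6b the log2 fold change was 2.42.

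Spry1, known for its part in kidney and muscle stem cell development, is on chromosome 3, 37639947 to 37644598, plus strand, with a transcript of unsettled status annotated over 710 bases of its exons on the other strand. It had 5.42, 8.05, 6.00 and 4.98 CPM in P6a to P6d and 8.64, 12.1 and 7.08 CPM in P30a to P30c, with P6b between the P30 values. Its log2 fold change of 0.59 ± 0.24 did not pass (edgeR adjusted p = 0.059). It passed without P6b (0.75, edgeR adjusted p = 0.0219), without P30c (0.75, edgeR adjusted p = 0.0326) and without P6a and P6b (0.72, edgeR adjusted p = 0.0468). Spry3, the remaining Sprouty gene, had no count in any library.

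The shares of Spry2 and Spry4 in the Sprouty total were compared next. Of Spry1, Spry2 and Spry4 counts in P6a to P6d, Spry2 held 40.1%, 26.1%, 49.6% and 62.0%, against 14.2%, 13.8% and 22.3% in the P30 libraries. Spry4 held 28.6%, 41.4%, 10.8% and 10.3%, then 53.4%, 51.6% and 45.2%. Neither share overlapped between the ages (exact permutation p = 0.0571 for each, two-sided, and 0.0914 after adjustment over 8 shares), so neither passed the test. In raw counts the share of Spry4 was above that of Spry2 in P6b, as in each P30 library. Per kilobase of transcript Spry2 was above Spry4 in P6b (37.9% against 26.4%) and also in P30c (33.4% against 29.8%). The share of Spry1 was 32.8% ± 5.00 (n = 4) and 33.2% ± 1.23 (n = 3), with exact permutation p = 0.857. Per kilobase these shares of Spry1 were 31.5% ± 5.51 and 39.3% ± 2.44 without overlap (exact permutation p = 0.0857), a difference of 7.83 percentage points in place of 0.438. These shares rest on 192 to 823 counts in a library.

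**Figure D4:**
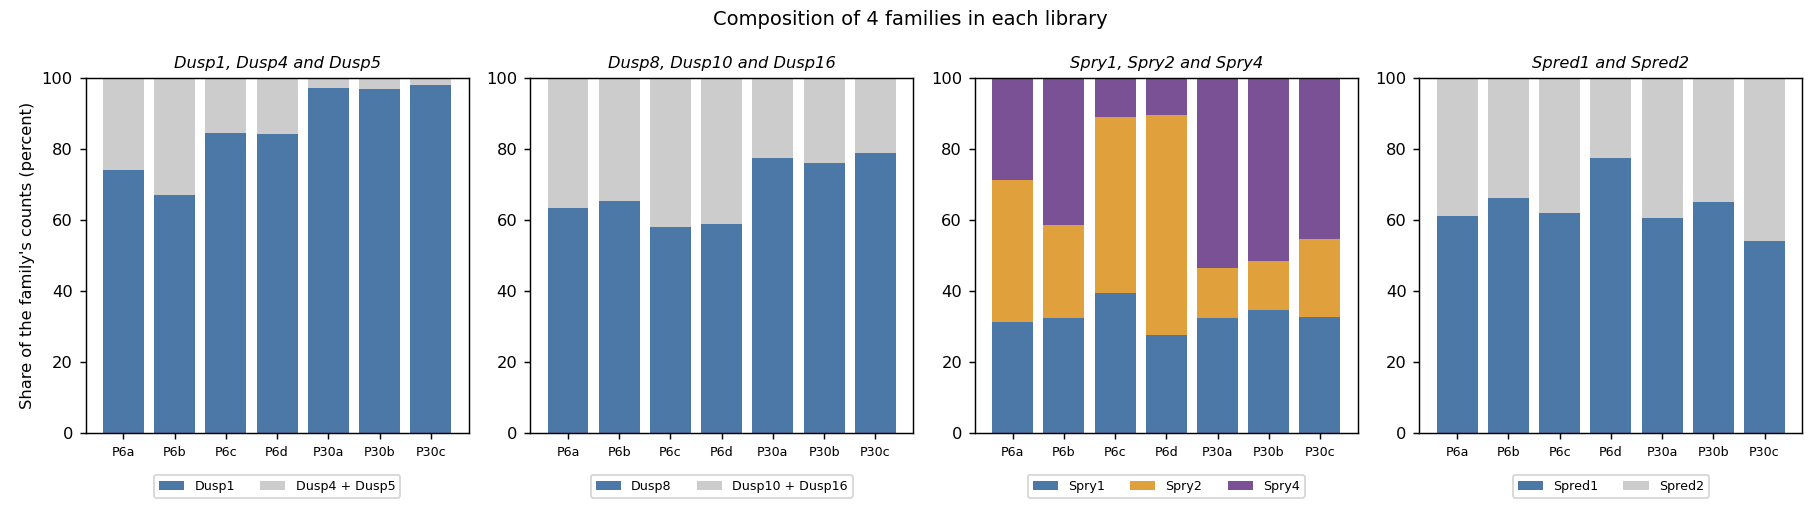
Stacked bars give the percent of a family's raw counts held by each gene in each of the 7 libraries. Dusp1 fills 97.1% to 98.2% of its bar at P30, Dusp8 76.2% to 78.9%, and Spry4 (purple) takes 45.2% to 53.4% of the Sprouty bar at P30.

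Spred proteins carry an N-terminal EVH1 domain and a Sprouty-related C terminus, and they bring the Ras GTPase-activating protein neurofibromin to the membrane. Both genes rose. Spred1, mutated in Legius syndrome, is on chromosome 2, 117121374 to 117182279, plus strand, and had 5.97, 8.25, 7.68 and 7.84 CPM in P6a to P6d and 17.1, 19.0 and 12.3 CPM in P30a to P30c. The log2 fold change was 1.11 ± 0.18 (edgeR adjusted p = 0.00079). Spred2 is on chromosome 11, 19924375 to 20024026, plus strand, and had 3.80, 4.19, 4.68 and 2.28 CPM, then 11.2, 10.1 and 10.4 CPM, a log2 fold change of 1.47 ± 0.23 (edgeR adjusted p = 0.00054). Neither gene overlapped between the ages, and both calls held under all 17 alternatives. Of the counts of both, Spred1 made up 54.2% to 65.2% at P30 and 61.1% to 77.5% at P6, ranges that overlapped (exact permutation p = 0.314). Sprouty transcripts held 62.4% ± 5.02 of the Sprouty and Spred total at P6 and 50.7% ± 3.40 at P30, without overlap (exact permutation p = 0.0571, and 0.0914 after adjustment). Spred3 did not pass the filter, with at most 0.466 CPM in a library. Nf1, which encodes neurofibromin and was chosen after its values were seen, rose by 1.05 ± 0.20 on the log2 scale (edgeR adjusted p = 0.0016), from 4.72 to 7.90 CPM in P6 libraries to 12.5 to 15.8 CPM in P30 libraries.

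Per kilobase of transcript, the order of the members changed below the top. At P6 the means ran from Dusp1 through Dusp8 (12.8 ± 3.28 CPM per kilobase), Dusp5 (11.1 ± 5.63), Spry2 (3.84 ± 1.02), Dusp6 (3.36 ± 0.695), Spry1 (2.20 ± 0.490), Spred1 (1.24 ± 0.168), Spry4 (0.984 ± 0.844) and Spred2 (0.840 ± 0.233) to Dusp4 (0.170 ± 0.0335). Neighbours with overlapping libraries were Dusp8 and Dusp5, Spry2 and Dusp6, Dusp6 and Spry1, Spred1 and Spry4, and Spry4 and Spred2. Spry2 was thus the most abundant Sprouty or Spred transcript per length at P6. At P30 it was the least abundant of the 5 (2.15 ± 0.290), below Spry1 (3.35 ± 0.935), Spry4 (2.95 ± 0.870), Spred1 (2.68 ± 0.576) and Spred2 (2.37 ± 0.119), and each of these neighbours overlapped the next. Dusp8 reached 23.8 ± 2.45 CPM per kilobase at P30, and Dusp6 (5.47 ± 0.622) and Dusp5 (5.40 ± 1.78) overlapped.

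The pathway that these inhibitors restrain was followed through lists of its parts. Over all tested genes 26.3% were higher and 27.8% lower at P30, and the list counts below stand beside these shares. Of 10 fibroblast growth factor genes 6 were tested, with 2 higher and 1 lower (1 and 3 with library totals). Fgf1 rose from 98.3 ± 19.0 to 346 ± 14.1 CPM, and Fgf13, an intracellular family member that binds sodium channels, fell from 154 ± 10.6 to 111.8 ± 4.90 CPM. Among 15 growth factor receptors tested, 4 were higher, 1 was lower (3 with library totals) and 10 did not pass, with a median log2 fold change of 0.46. The lower one was Igf1r, the insulin-like growth factor receptor, from 37.3 ± 4.55 to 19.0 ± 3.45 CPM. Of the higher ones, Kdr and Pdgfrb, from 28.3 ± 7.64 to 152.8 ± 46.8 CPM and from 12.8 ± 2.69 to 37.4 ± 11.6 CPM, are also markers of endothelial cells and pericytes. Flt1, another endothelial receptor, and Erbb3 made up the rest and were chosen after their values were seen.

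Adaptors and Ras genes gave 4 higher and 6 lower of 19, and the kinases and scaffolds of the ERK cascade 2 higher and 5 lower of 15. Over all tested genes 26.3% were higher and 27.8% lower. The median log2 fold changes of the lists were -0.24 and -0.22. The 5 lower of the cascade were 3 with DESeq2, with its size factors or with no filter on low counts, and 8 with library totals. With library totals the adaptors and Ras genes gave 2 higher and 9 lower. Ptpn11, the phosphatase SHP2 that passes receptor signals to Ras, rose from 87.5 ± 13.0 to 214 ± 18.7 CPM. Grb2, the adaptor that carries the Ras activator Sos, fell from 111.7 ± 9.59 to 70.6 ± 0.488 CPM, and Rap1b, a small GTPase related to Ras, from 161 ± 23.7 to 49.0 ± 4.29 CPM. Iqgap1, a scaffold of the cascade, rose by 0.63 ± 0.12 on the log2 scale, whereas Map2k1 (MEK1) fell by 0.22 ± 0.08 and Mapk3 (ERK1) by 0.83 ± 0.14.

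The JNK and p38 branch gave 8 higher and 1 lower of 17, where 26.3% of all tested genes were higher and 27.8% lower. Its median log2 fold change was 0.35, and with library totals 5 were higher and 2 lower. Map2k3, an activator of p38, rose from 75.9 ± 5.23 to 184 ± 5.97 CPM, while Map2k6, another activator of p38, fell from 12.5 ± 3.92 to 6.56 ± 0.663 CPM. Mapk8ip3, a scaffold of JNK, rose by 1.07 ± 0.20 on the log2 scale. Downstream kinases gave 5 higher and none lower of 11, and 3 higher with library totals. Mapkapk2, a target of p38, rose from 421 ± 21.0 to 566 ± 40.5 CPM, and Rps6ka2, a ribosomal S6 kinase that ERK activates, from 15.2 ± 5.88 to 39.2 ± 11.4 CPM.

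Of 26 other inhibitors of Ras-ERK signalling tested, 8 were higher, 9 lower and 9 not past the threshold (over all tested genes 26.3% were higher and 27.8% lower), with a median log2 fold change of 0.01 where that of all tested genes was -0.02. Lrig1, which promotes the degradation of ErbB receptors, rose from 45.0 ± 16.2 to 82.5 ± 3.77 CPM. Rgs2, a brake on G protein signalling, fell from 174 ± 34.2 to 69.6 ± 11.5 CPM, and Ptpn6, a phosphatase known from blood cells, from 5.53 ± 1.48 to 1.33 ± 0.548 CPM. Transcription factors and other targets responsive to ERK gave 9 higher and 2 lower of 19, a list that shares Fos, Jun, Egr1 and others with the early genes above. Of the ETS factors in it, Etv1 fell from 14.9 ± 2.62 to 3.76 ± 1.10 CPM. Etv5, chosen after its values were seen, rose by 1.22 ± 0.31 on the log2 scale, from 15.1, 11.7, 6.54 and 5.31 CPM in P6a to P6d to 22.3, 20.9 and 23.5 CPM in P30a to P30c. The 15 cell cycle genes were all lower, with sums of 515 to 716 CPM at P6 and 39.0 to 65.9 CPM at P30.

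A difference of at least 2-fold was called for 5 members (Dusp1, Dusp5, Spry4, Spred1 and Spred2), beside 23.0% of all tested genes. For these, the 3 tested genes most like each were found by Pearson's correlation of log2 CPM over the 7 libraries, which share the difference of age and of depth. Dusp1 was most like Mina (r = 0.999), Lrg1 (0.997) and Arhgap26 (0.997). Dusp5 was most like Tyw1 (0.992), Nedd4l (0.990) and Cdk11b (0.985), none of which passed the test between ages. Spry4 was most like Cep78 (0.994), Dysf (0.988) and Sema6d (0.986), Spred1 like Rapgef5 (0.998), Gbp7 (0.994) and Rcbtb1 (0.993), and Spred2 like Xk (0.995), Klf12 (0.992) and Rhot2 (0.991). Each member was compared with 12560 genes over 7 libraries, and the values are given as a description.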

How the data were processed

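The authors deposited raw counts for each gene. The submitters' processing notes name mm10, the aligner STAR 2.5.3a, CASAVA 1.8 and featureCounts (Subread 1.5.2). Per the labels' protocols, cDNA was made from 10 ng of RNA by SMART-Seq v4 (8 cycles of PCR) and tagged with Nextera XT. One protocol text gives collection at P14, but the ages in the titles, P6 and P30, were followed. For the annotation, strand setting and handling of multi-mapping reads, the entry is: not given in the sources used here. Per the file headers, the authors' DESeq2 table gives a mean signal, log2 fold changes with standard errors, the Wald statistic (a score), and p-values with their adjusted values.

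Count columns carry letters that the labels tie to no title number, so each was assigned to the age its name begins with. The lowest chi-square per gene between libraries of an age was 12.4, so none duplicated another. The labels do not say whether libraries came from separate animals, so p-values cover only variation among these libraries, and that may be technical.

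The test was edgeR 4.0.16 (R 4.3.3) with filterByExpr, TMM and a quasi-likelihood fit of age (Benjamini-Hochberg over 12561 genes, threshold 0.05). The procedure was run on 5 simulated sets in which 200 of 12561 genes were changed. It found 68.4% of 2-fold and 90.8% of 4-fold changes, and 5.46% of its calls were false. In the data 54.1% of genes were called, and the procedure was not tested with that many changed genes. Family shares were tested by exact permutation over 35 splits on the absolute difference of means. Lengths and positions came from GENCODE M21 (20961 of 23337 symbols matched, longest coding transcript), and upstream sequence from RefSeq.

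Members and lists were chosen with earlier results of these data known. Genes named are the members and, per list, the 2 called genes with the highest mean CPM in each direction, and the called gene that changed most (mean CPM 1 or more); only some of those the rule gives are named, and any other gene was chosen after its values were seen, including Dusp9, Dusp16, Spry3, Spred3 and the markers Tnnt2, Cd52, Acta2, Kcnj8 and Myh11. Alternatives were other scalings, filters and tests (DESeq2 1.42.0, limma-voom 3.58.1), a correction for transcript length, and leaving out libraries. Scaling by library totals gave 2407 higher and 4660 lower genes, against 3307 and 3490 by TMM, and the median log2 fold change moved from -0.02 to -0.20.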

Additional observations from a re-analysis of the deposited data

How the results depend on the processing

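In each of the 17 alternatives all 9 tested members kept their direction, and Dusp1, Dusp6, Dusp8, Spred1 and Spred2 passed the threshold throughout. The number of members lower at P30 was 1 in place of 2 with DESeq2 size factors, with a mean CPM of at least 5, with limma-voom, with the length trend removed and without either pair of P6 libraries, and 0 to 2 with 1 library left out. The Dusp5 call was lost with DESeq2 size factors (log2 fold change -1.01, edgeR adjusted p = 0.0512), with a mean CPM of at least 5 (-1.03, edgeR adjusted p = 0.0526), with limma-voom (-0.87, limma adjusted p = 0.118), with the length trend removed (-0.98, edgeR adjusted p = 0.0585) and without P6a and P6b (-0.22). That of Spry4 was lost with library totals (1.37, edgeR adjusted p = 0.0672), with DESeq2 (1.605, DESeq2 adjusted p = 0.0627) and without P6c and P6d (0.86), and that of Spry2 without P6c and P6d (-0.56). Spry1 passed without P6a and P6b (0.72). With 1 library left out the log2 fold change ran from -1.29 to -0.78 for Dusp5, from 1.23 to 2.42 for Spry4, from -0.92 to -0.65 for Spry2 and from 0.35 to 0.75 for Spry1. Leaving out P6a, P6b, P30a or P30c ended the Dusp5 call. The cause was not tested, except that fewer libraries were compared. Family shares other than that of Spry1 kept their direction, and with single libraries or pairs left out differences moved by less than the larger SD. The Spry1 difference of 0.438 percentage points was 7.83 per kilobase, a move above the SD, and ran from -1.25 to 2.72 with 1 library left out and to -0.45 without P6a and P6b. With a library left out, an exact test over the rest cannot reach the threshold. Of 510 counts for single lists, 73 moved, by over 1.5 times or to or from 0. Those that moved with library totals stand beside the counts of their lists. No paired analysis was possible because the count columns carry letters and no replicate number. Depth limits Dusp4, at 2 to 28 counts.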
